A study of Homo sapiens with 8 samples.

Results

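The core pluripotency genes described here are 10 transcripts chosen by gene symbol, out of 35940 symbols in the deposited table: POU5F1, NANOG, PRDM14, SALL4, ZFP42, ZSCAN10, DPPA2, DPPA4, UTF1 and L1TD1. Their poly(A) RNA was sequenced from ESI017, an embryonic stem cell line of human origin with a wild-type genotype, on its way to a posterior neural fate. Cells left the stem cell medium mTeSR1 for the serum-free medium N2B27 with the small molecules SB at 10 µM and LDN at 100 nM. Recombinant WNT3A protein, given at 300 ng/mL in the series description, joined the medium at 34 h. RNA was taken at 34 h, before WNT3A, and at 42, 50 and 72 h, that is 8, 16 and 38 h after it. Each of the 4 time points had 2 libraries, replicate 1 and replicate 2, described as independent biological replicates, and the replicate number is also given as the batch. All groups share the SB and LDN medium, and all come from 1 cell line. Cells still in mTeSR1, and cells without WNT3A, were not analysed here, so every change from 34 h holds elapsed time and WNT3A together.

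Pluripotent stem cells are held in their state by a small set of DNA-binding proteins that sit on each other's control regions. POU5F1 (also called OCT4) binds DNA together with SOX2, and NANOG joins many of the same sites; NANOG transcription in human cells depends on activin and Nodal signalling. Around this core stand further zinc finger factors, chromatin proteins and an RNA-binding protein whose transcripts are used as markers of the undifferentiated state, and which are switched off in most somatic lineages.

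The upstream sequences of 5 members are shown because they give the letters that the core factors themselves could read (NANOG), those of a neighbouring gene pair with very different levels (DPPA4 and DPPA2), and those of the 2 members with the lowest mean level left at 72 h (L1TD1 and ZSCAN10). Each is the 250 bases before the RefSeq start on GRCh38.p14, 5′ to 3′ on the gene's own strand. The intervals are chr12:7789152-7789401 (NANOG, plus strand), chr3:109316518-109316767 (DPPA2, minus), chr3:109337547-109337796 (DPPA4, minus), chr1:62194599-62194848 (L1TD1, plus) and chr16:3099295-3099544 (ZSCAN10, minus). Capitals mark every match, on either strand, to any of 5 motifs: the octamer core ATGCAAA, the SOX core ACAATG, the SOX and POU composite (CATTGT, any 1 base, then the octamer core), the TCF and LEF core TCAAAG, and the GC box GGGCGG.
NANOG: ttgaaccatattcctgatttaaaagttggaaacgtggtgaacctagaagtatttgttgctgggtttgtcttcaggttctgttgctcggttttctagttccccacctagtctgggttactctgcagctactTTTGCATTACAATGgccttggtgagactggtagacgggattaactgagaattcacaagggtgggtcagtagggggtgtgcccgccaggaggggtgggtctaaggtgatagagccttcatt
DPPA2: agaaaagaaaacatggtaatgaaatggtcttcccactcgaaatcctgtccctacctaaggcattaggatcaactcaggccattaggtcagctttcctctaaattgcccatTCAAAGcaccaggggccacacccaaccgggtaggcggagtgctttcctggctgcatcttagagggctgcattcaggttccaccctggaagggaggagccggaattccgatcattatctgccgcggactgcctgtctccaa
DPPA4: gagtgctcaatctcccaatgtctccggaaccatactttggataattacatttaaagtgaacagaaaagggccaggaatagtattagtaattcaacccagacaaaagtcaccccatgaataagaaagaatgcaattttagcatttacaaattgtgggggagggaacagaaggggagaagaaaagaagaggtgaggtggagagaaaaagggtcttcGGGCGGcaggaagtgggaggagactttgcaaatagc
L1TD1: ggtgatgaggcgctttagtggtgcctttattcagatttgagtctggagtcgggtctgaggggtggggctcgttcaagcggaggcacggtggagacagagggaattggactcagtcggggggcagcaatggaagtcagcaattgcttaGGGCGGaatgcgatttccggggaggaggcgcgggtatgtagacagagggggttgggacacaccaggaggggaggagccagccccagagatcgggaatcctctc
ZSCAN10: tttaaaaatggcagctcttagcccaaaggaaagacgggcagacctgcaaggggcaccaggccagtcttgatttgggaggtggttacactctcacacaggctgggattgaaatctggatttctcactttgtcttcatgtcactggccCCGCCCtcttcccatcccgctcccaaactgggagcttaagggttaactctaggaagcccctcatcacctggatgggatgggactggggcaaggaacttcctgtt

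In the NANOG window the capitals are the SOX and POU composite, read on the opposite strand, from 120 to 107 bases before the start. The octamer core and the SOX core lie inside it. The composite was searched because this NANOG element is well known, so finding it is a description; it occurred in 2 of 35116 windows of the same length. RefSeq entries were matched for 7 of the 10 members. The octamer core was in 3.94% of all windows and the SOX core in 9.29%, and among the 7 members each was in NANOG. The TCF and LEF core, the letters through which WNT signals are read in many genes, was in 11.2% of all windows and in 1 of the 7, DPPA2, from 140 to 135 bases before the start. The GC box was in 42.6% of all windows and in 5 of the 7. A match is letters in a window and shows no binding.

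Levels are the deposited TPM, in which reads are scaled by transcript length and by library, so members can be compared with each other. A change is a difference of log2(TPM + 1), with 1 added to each value, which understates the change of low genes. Genes that reached 1 TPM in 2 or more libraries numbered 14908; of these, tested with limma over all 8 libraries, the 10 members were all included. A gene is called higher or lower at a Benjamini-Hochberg adjusted p under 0.05 over all tested genes. The number of reads behind each library is unknown. In bulk RNA, fewer cells that carry a transcript and less of it per cell cannot be told apart.

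Summed over the members, replicates 1 and 2 held 2176 and 2172 TPM before WNT3A, 1906 and 1793 by 42 h, 1509 and 1576 by 50 h, then 781 and 800.3 by 72 h. POU5F1 held between 45.4% and 57.1% of that sum in each library. Without POU5F1, the sum of the other 9 members was 41.3% of its 34 h level at 72 h. Relative to 34 h, limma called 1 member lower by 42 h, 4 by 50 h and 6 by 72 h, and no member higher. Over all tested genes the share called lower was 0.792%, 2.74% and 11.3%, the share called higher 1.78%, 3.52% and 12.7%, and the share called in either direction 2.58%, 6.26% and 24.0%. The median log2 change of the 10 was -0.21, -0.45 and -0.90, against 0.01, 0.04 and 0.06 over all tested genes. Without replicate 1 at 34 h the count at 50 h was 2, and without replicate 2 at 34 h it was 1. Between 42 h and 50 h limma called 0 members, where 0.0939% of all tested genes were called changed (0.0335% lower, 0.0604% higher). At an unadjusted p under 0.05 there were 5 of the 10 members and 1394 of the 14908 tested genes. Between 50 h and 72 h it called 4 members lower and 1 higher, against 4.41% and 2.92% of all tested genes (7.33% in either direction). Over the whole course 6 of the 10 changed by the moderated F-test (POU5F1, PRDM14, DPPA4, ZFP42, L1TD1 and ZSCAN10), against 17.4% of tested genes.

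**Figure D1:**
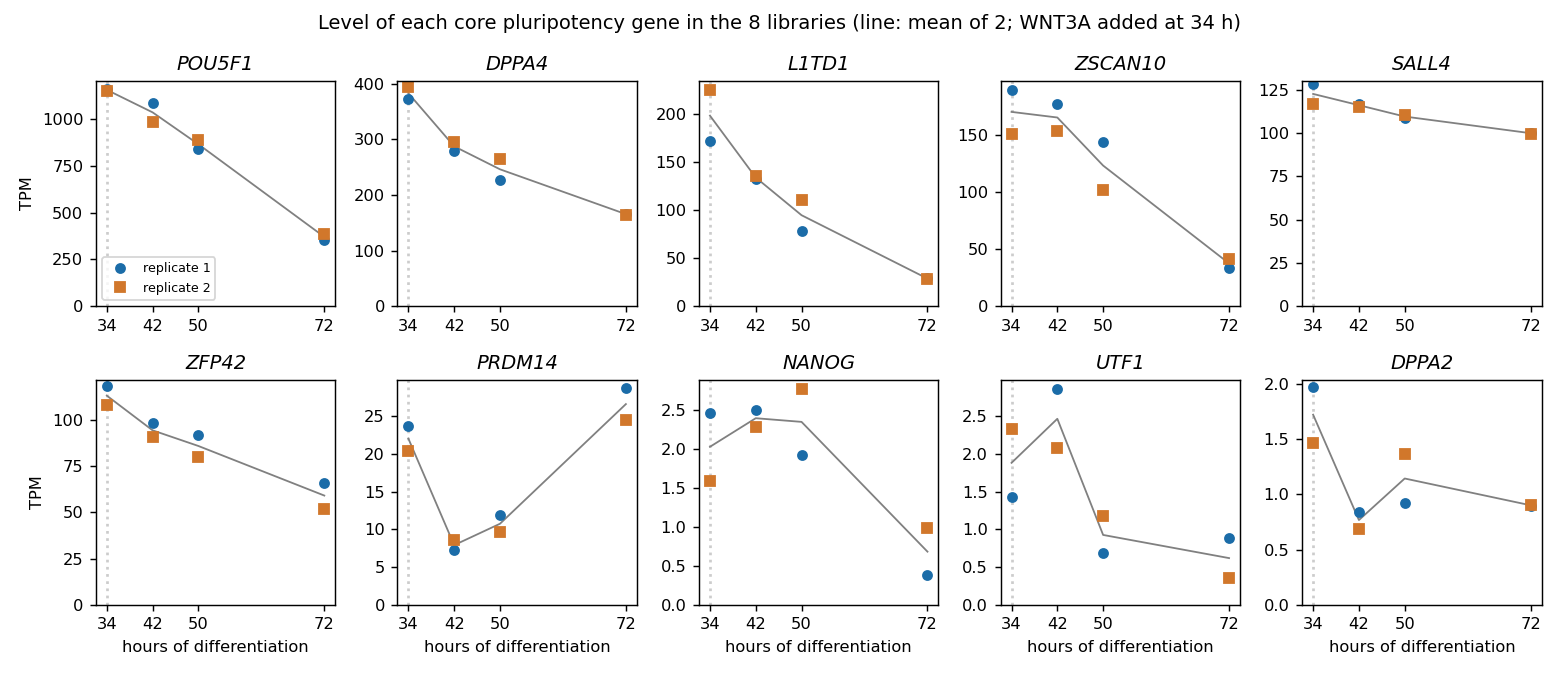
TPM (y axis, from 0) against hours of differentiation (x axis) for each member, ordered by the 34 h mean; circles and squares are replicates 1 and 2, the line joins the means, and the dotted line marks WNT3A addition. POU5F1 fell from 1159 to 371 TPM on average, SALL4 went from 123 to 99.9 TPM, and PRDM14 was lowest at 42 h and back at 26.6 TPM at 72 h.

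The core factors stood far apart in level. POU5F1, the POU-domain factor of the core (chromosome 6, 31164337 to 31180731, minus strand, protein coding), had 1165 and 1152 TPM before WNT3A (34 h), 1087 and 989 by 42 h, 842 and 892 by 50 h, then 354 and 388 by 72 h. No time points overlapped, and each was below the one before. Its level left, that is the later TPM as a percentage of the 34 h TPM, was 89.6% by 42 h, 74.8% by 50 h and 32.0% by 72 h. The change at 42 h did not pass (-0.16 ± 0.08 SE, limma adjusted p 0.443). That at 50 h passed (-0.42 ± 0.08, limma adjusted p 0.0197; by replicate -0.47, then -0.37). It was lost without replicate 1 or replicate 2 at 34 h (0.110 and 0.107) without replicate 1 at 50 h (0.0920), with no filter on low values (0.0523), without a variance trend (0.0964) and when 34 and 50 h were fitted by themselves (0.0544). Over all 18 alternatives its adjusted p from limma spanned 0.0139 to 0.618. The later fall was steeper: from 50 h to 72 h POU5F1 dropped by 1.22 on the log2 scale (SE 0.08, limma adjusted p 0.000167; by replicate -1.25, then -1.20).

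The table lists POU5F1 under 4 Ensembl identifiers, whose TPM were summed. The identifier ENSG00000204531 is on the primary assembly of GENCODE release 29, and the other 3 were not matched there. It held 31.5% and 45.9% of the POU5F1 sum in replicates 1 and 2 at 34 h, 9.42% and 42.3% of it at 50 h, then 28.9% and 29.1% of it by 72 h. At 50 h the sum was 867 ± 35.2 TPM (SD, n = 2), while this row had 228 ± 211 TPM. So the rows moved against each other in replicate 1 at 50 h, and a level of POU5F1 taken from 1 row is uncertain. By the row with the highest mean, ENSG00000229094, the level left was 88.4% at 50 h and 36.6% at 72 h, and the 50 h change did not pass (limma adjusted p 0.618).

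**Figure D2:**
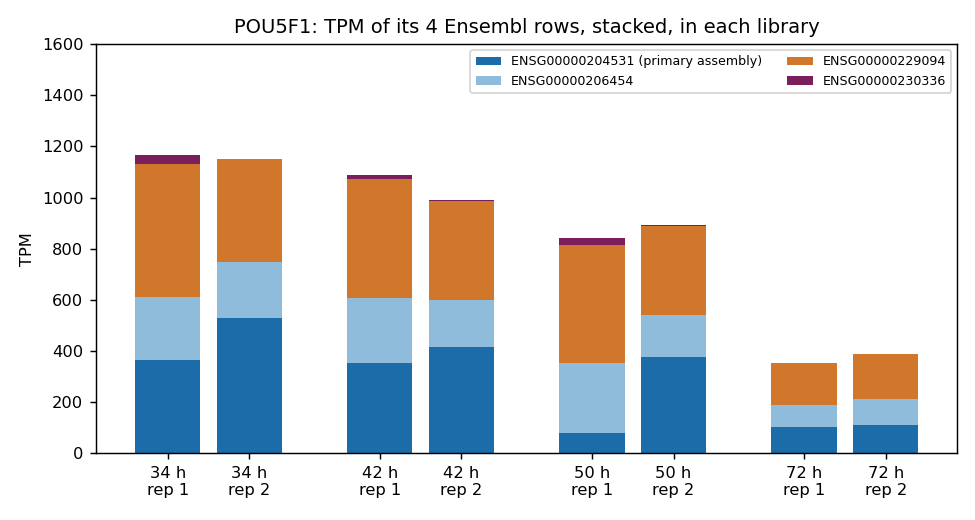
TPM (y axis, from 0) of the 4 Ensembl rows of POU5F1, stacked, in each of the 8 libraries (x axis, time and replicate). The stacks of 1 time point have similar heights, while the bottom segment shrinks to 9.42% of the sum in replicate 1 at 50 h.

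NANOG, the homeodomain factor of the core (chromosome 12, 7787794 to 7799141, plus strand), was already near the filter at 34 h. It had 2.46 and 1.59 TPM before WNT3A (34 h), 2.50 and 2.29 by 42 h, 1.92 and 2.77 by 50 h, then 0.380 and 0.983 by 72 h. The 34, 42 and 50 h libraries overlapped, and both 72 h libraries lay below all others. At 34 h the mean of POU5F1 was 1159 TPM against 2.03 TPM for NANOG, so the core factors differed widely in level before WNT3A was added. The NANOG change at 72 h was -0.86 ± 0.28 (limma adjusted p 0.0576; by replicate -1.33, then -0.39). It passed with a pseudocount of 0.1 (0.0494) and without a variance trend (0.0441), with a range of 0.0441 to 0.270. NANOGP1 and NANOGP8, close copies of NANOG, had at most 1.60 and 0.392 TPM in a library, and reads shared between such copies could have been assigned to any of them.

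**Figure D3:**
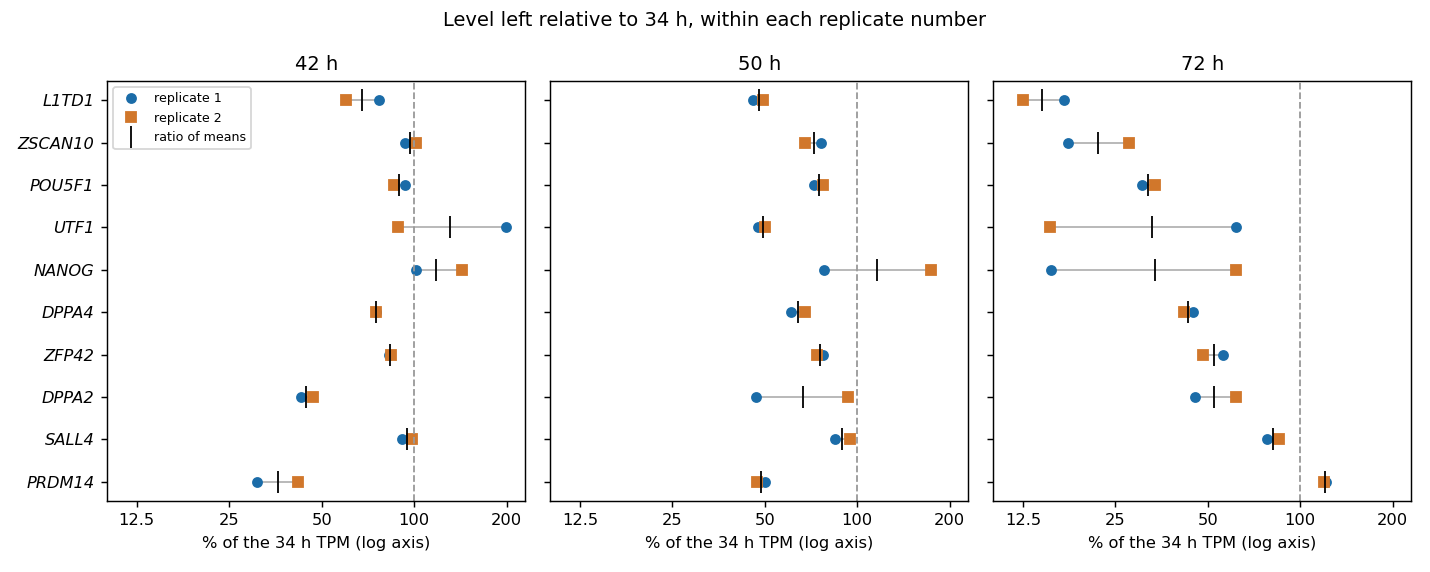
Later TPM as a percentage of the 34 h TPM (x axis, log scale) at 42, 50 and 72 h (panels) for each member (y axis, ordered by the 72 h value); circles and squares are replicates 1 and 2 and the tick is the ratio of means. L1TD1 ends at 14.5% and SALL4 at 81.5%, while PRDM14 goes from 35.9% at 42 h to 121% at 72 h.

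The other DNA-binding factors followed different courses. PRDM14, a PR-domain zinc finger protein of pluripotent cells and early germ cells, had 23.7 and 20.4 TPM before WNT3A (34 h), 7.28 and 8.56 by 42 h, 11.9 and 9.64 by 50 h, then 28.8 and 24.5 by 72 h. Both 72 h libraries were above both 34 h libraries, and the 42 and 50 h libraries were all below. PRDM14 was the member called lower at 42 h (-1.37 ± 0.16, limma adjusted p 0.00369; by replicate -1.58, then -1.17), and that call passed in all 18 alternatives. At 50 h it was still lower (-0.98 ± 0.16, limma adjusted p 0.0110; 0.0821 without replicate 1 at 34 h and 0.0585 without replicate 2 at 50 h; range 0.00653 to 0.0821). From 50 h to 72 h PRDM14 rose by 1.24 ± 0.16 (limma adjusted p 0.00380; by replicate 1.21, then 1.26), the member called higher in that interval, again in all 18 alternatives. At 72 h against 34 h its difference was 0.26 with a 95% confidence interval of -0.11 to 0.64 (limma adjusted p 0.286).

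ZSCAN10, a SCAN-domain zinc finger factor (chromosome 16, 3088890 to 3099317, minus strand), held near its 34 h level at 42 h and fell later. It had 190 and 151 TPM before WNT3A (34 h), 177 and 154 by 42 h, 145 and 102 by 50 h, then 33.3 and 41.7 by 72 h. The 34 and 42 h values overlapped, and both 72 h libraries were far below all the rest. Its level left was 97.1%, 72.4% and 22.0% at the 3 later times. The 50 h change did not pass (-0.48 ± 0.19, limma adjusted p 0.207), and from 50 h to 72 h ZSCAN10 dropped by 1.68 on the log2 scale (SE 0.19, limma adjusted p 0.00190; by replicate -2.08, then -1.27).

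ZFP42, the YY1-related zinc finger protein known as REX1 and a widely used marker of undifferentiated cells (chromosome 4, 187995771 to 188005050, plus strand), declined in small steps. It had 118 and 108 TPM before WNT3A (34 h), 98.1 and 90.4 by 42 h, 91.7 and 79.9 by 50 h, then 66.1 and 52.0 by 72 h. The 34 h and 72 h libraries stood apart from those of the other times, and the 42 h and 50 h libraries overlapped. By 72 h ZFP42 had fallen by 0.93 on the log2 scale (SE 0.13, limma adjusted p 0.00203; by replicate -0.83, then -1.04). The step from 50 h to 72 h lay at the threshold and did not pass (-0.54 ± 0.13, limma adjusted p 0.0512). It passed in 5 of 18 alternatives: the replicate block (0.0178), a mean of at least 5 TPM (0.0389), trimmed mean rescaling (0.0411), quantile normalization (0.0456) and mitochondrial genes left out (0.04998). The range over all 18 was 0.0178 to 0.247.

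SALL4, a spalt-type zinc finger factor that works with POU5F1 and recruits a repressor complex (chromosome 20, 51782331 to 51802520, minus strand), had the most left at 72 h of the members that ended below 34 h. It had 128.5 and 116.5 TPM before WNT3A (34 h), 116.9 and 115.1 by 42 h, 108.5 and 110.4 by 50 h, then 100.2 and 99.5 by 72 h. The 34 and 42 h libraries overlapped, and the 72 h libraries lay below all others, at 81.5% of the 34 h mean. The moderated F-test over the whole course did not call SALL4 (limma adjusted p 0.147). Against 34 h alone, its small fall at 72 h passed (-0.29 ± 0.09, limma adjusted p 0.0430, by replicate -0.36, then -0.23). It was lost without any 1 of the 34, 42 or 72 h libraries (0.0668 to 0.206), when 34 and 72 h were fitted by themselves (0.0656) and without a variance trend (0.104); the range was 0.0212 to 0.206.

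The chromatin proteins DPPA4 and DPPA2 are SAP-domain partners encoded side by side on chromosome 3, at 109326141 to 109337572 and 109293788 to 109316517 on the minus strand, with 9623 bases between them. Despite that, DPPA4 had 372 and 393 TPM at 34 h where DPPA2 had 1.97 and 1.47 TPM. DPPA4 went on to 280 and 295 TPM by 42 h, 227 and 265 by 50 h, then 166 and 165 by 72 h, with no overlap between any 2 time points. Its change at 42 h was almost equal within both replicates (-0.41 and -0.41) but did not pass (limma adjusted p 0.0668). Without replicate 1 or replicate 2 at 50 h it did (0.0358 and 0.0366; range 0.0358 to 0.339). At 50 h DPPA4 had fallen by 0.64 (SE 0.09, limma adjusted p 0.00553; 0.0537 without replicate 2 at 34 h; range 0.00357 to 0.0537). At 72 h the fall was 1.21 on the log2 scale, a change of -1.21 ± 0.09 (limma adjusted p 7.652e-05; by replicate -1.16, then -1.25). The step from 50 h to 72 h passed as well (-0.57 ± 0.09, limma adjusted p 0.00978) but not without replicate 1 or replicate 2 at 72 h (0.0746 and 0.0675; range 0.00675 to 0.0746).

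DPPA2 had 0.844 and 0.690 TPM by 42 h, 0.921 and 1.37 by 50 h, then 0.894 and 0.907 by 72 h, so every later library lay below both 34 h libraries. None of its changes passed (limma adjusted p 0.312, 0.488 and 0.173 at 42, 50 and 72 h). UTF1, another chromatin-bound protein of undifferentiated cells (chromosome 10, 133230274 to 133231558, plus strand), was also low. It had 1.43 and 2.33 TPM before WNT3A (34 h), 2.86 and 2.07 by 42 h, 0.679 and 1.17 by 50 h, then 0.880 and 0.357 by 72 h. Its libraries at 50 and 72 h lay below all those at 34 and 42 h. The 72 h change of UTF1 was -0.83 ± 0.30 (limma adjusted p 0.0769; by replicate -0.37, then -1.30).

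L1TD1, an RNA-binding protein derived from a LINE-1 element and a partner of LIN28A (chromosome 1, 62194831 to 62212328, plus strand), had the lowest ratio of means left at 72 h; NANOG in replicate 1 (15.5%) and UTF1 in replicate 2 (15.3%) were below the 17.0% of L1TD1 in replicate 1. L1TD1 had 172 and 225 TPM before WNT3A (34 h), 133 and 135 by 42 h, 78.9 and 111 by 50 h, then 29.3 and 28.1 by 72 h. No 2 time points overlapped. The level left was 67.5%, 47.7% and 14.5%. L1TD1 had fallen at 50 h (-1.07 ± 0.17, limma adjusted p 0.00971; 0.0744 without replicate 2 at 34 h; range 0.00514 to 0.0744). It fell again from 50 h to 72 h (-1.67 ± 0.17, limma adjusted p 0.00128), so that at 72 h the change was -2.74 ± 0.17 (limma adjusted p 2.717e-05; by replicate -2.52, then -2.96).

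**Figure D4:**
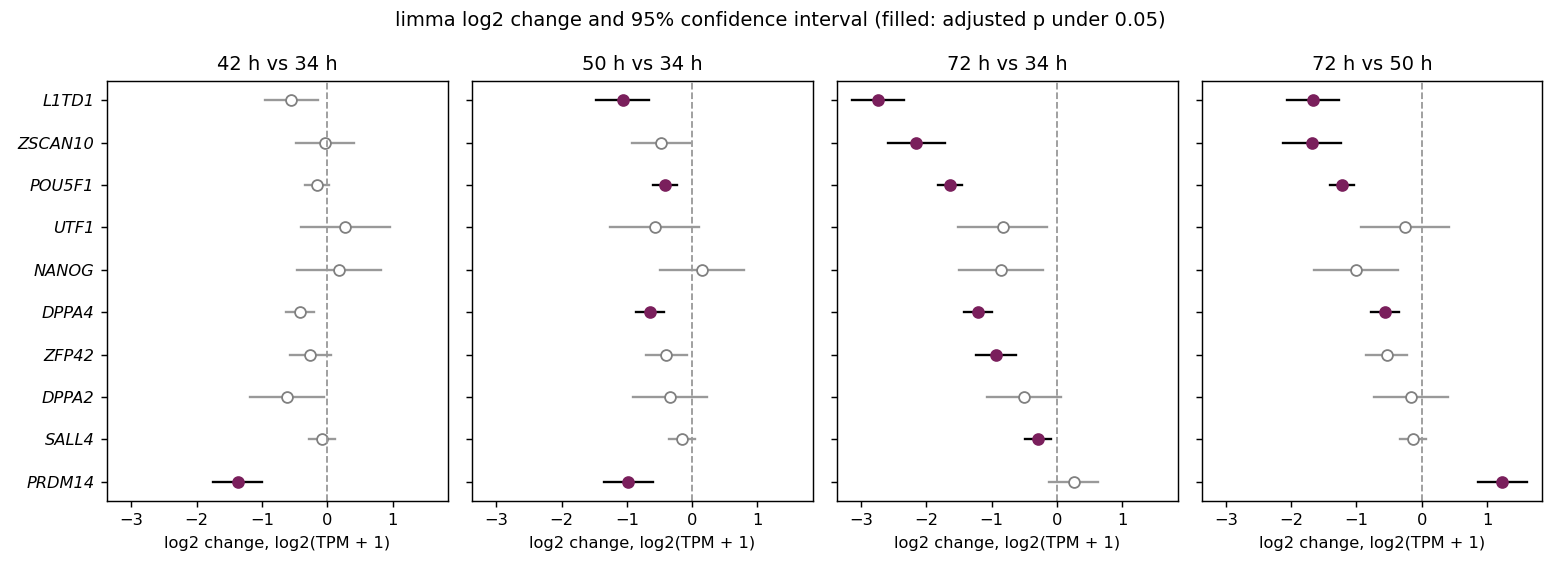
limma log2 change on the log2(TPM + 1) scale (x axis) with its 95% confidence interval for each member (y axis) in 4 comparisons (panels); filled points passed an adjusted p of 0.05. PRDM14 is the filled point at 42 h, and at 72 h against 50 h it is on the other side of 0 from POU5F1, ZSCAN10, L1TD1 and DPPA4.

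The order of loss after 34 h changed over the course. Loss before 34 h was not measured, so a late place, such as that of NANOG at 50 h, cannot show when loss began. At 42 h PRDM14 and DPPA2 had the least left, 35.9% and 44.6%, each without overlap with the next member. DPPA2 was near 1 TPM and its change at 42 h did not pass (limma adjusted p 0.312). L1TD1 (67.5%) and DPPA4 (75.1%) followed and overlapped, and ZFP42 (83.4%) overlapped with neither neighbour. From POU5F1 (89.6%) through SALL4 (94.7%), ZSCAN10 (97.1%) and NANOG (118%) to UTF1 (131%), each member overlapped with the next. At 50 h L1TD1 (47.7%), PRDM14 (48.8%) and UTF1 (49.2%) overlapped, and DPPA4, DPPA2, ZSCAN10, POU5F1 and ZFP42 followed from 64.3% to 75.9%, each overlapping with its neighbour among these. DPPA2 ran from 46.7% to 93.1% between replicates, so it also overlapped with L1TD1, PRDM14, UTF1, SALL4 and NANOG. SALL4 (89.3%) and NANOG (116%) came last and overlapped. At 72 h the order from least left was L1TD1, ZSCAN10 (22.0%), POU5F1 (32.0%), UTF1 (32.9%), NANOG (33.6%), DPPA4 (43.2%), ZFP42 (52.2%), DPPA2 (52.3%), SALL4 and PRDM14. L1TD1, ZSCAN10 and POU5F1 did not overlap with each other, and neither did SALL4 with its neighbours, but UTF1 ran from 15.3% to 61.5% and NANOG from 15.5% to 61.7% between replicates, so that their ranges overlapped with those of all other members but SALL4 and PRDM14, and their places are not resolved. L1TD1, ZSCAN10, POU5F1, DPPA2, SALL4 and PRDM14 kept their places when ranked by log2 change with a pseudocount of 1 or 0.1; the other 4 moved. Both libraries first lay below 50% of 34 h at 42 h for PRDM14 and DPPA2, at 50 h for L1TD1 and at 72 h for POU5F1, DPPA4 and ZSCAN10. Neither PRDM14 nor DPPA2 kept this at 50 h, when replicate 1 of PRDM14 had 50.1% left and replicate 2 of DPPA2 had 93.1%.

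Profiles most like those of the members were sought among 10843 genes with a mean of at least 5 TPM, by Pearson correlation of log2(TPM + 1) over the 8 libraries, which share 4 time points. The likeness is a description. For POU5F1 they were GLB1L3 and ESRP1, a splicing factor of epithelial cells (r 0.997 for both), and 565 genes exceeded 0.9. L1TD1 was most like SCG3 and KARS (0.998 and 0.997), DPPA4 like UBP1 and UGP2 (0.997 for both), and ZSCAN10 like ZYX and PRKAR1B (0.996 and 0.995). For PRDM14, CSNK1E (0.972) and RASL11B (0.966) led, and 24 genes exceeded 0.9, against 7 for DPPA2, 32 for UTF1, 102 for NANOG and at least 359 for each other member. CSNK1E, a casein kinase of the WNT and circadian pathways, had means of 155, 119, 128 and 155 TPM at the 4 times. Among members, the same measure was 0.979 for POU5F1 with ZSCAN10, 0.976 with L1TD1 and -0.553 with PRDM14.

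Other genes of the primed pluripotent state, the state of conventional human stem cells, were taken from a list of 25, of which 21 were tested. Against 34 h, limma called 5 lower and 2 higher by 42 h, 8 lower and 2 higher by 50 h, then 10 lower and 4 higher by 72 h. Over all tested genes 0.792%, 2.74% and 11.3% were lower at 42, 50 and 72 h, and 1.78%, 3.52% and 12.7% were higher. Without a variance trend, and with Ensembl rows apart, DNMT3B, GAL and SFRP2 lost their calls as lower at 42 h. With a pseudocount of 0.1 FOXD3, GAL and SFRP2 lost them. The 42 h count of lower genes rested on single libraries: it was 1 without replicate 1 at 34 h or either replicate at 42 h, 2 without replicate 2 at 34 h, and 3 without either replicate at 50 h. The 2 higher genes at 42 h became 1 without either replicate at 34 h or replicate 2 at 42 h. At 50 h the lower count was 4 and 5 without replicates 1 and 2 at 34 h, and the higher count was 0 without either of these and 1 without any other library. At 72 h the counts ran from 8 to 11 lower and 3 to 5 higher over the 18 alternatives. The median change at 72 h was -0.81 against 0.06 over all tested genes. TDGF1, the Nodal co-receptor, fell furthest at 72 h (-7.17 ± 0.24, limma adjusted p 2.167e-06), far beyond any member. GAL, a neuropeptide abundant in stem cells, went from 86.5 and 82.7 TPM at 34 h to 5.09 and 6.75 TPM (-3.64 ± 0.16, limma adjusted p 5.944e-06). DNMT3B, a de novo DNA methyltransferase, went from 558 and 452 TPM to 207 and 216 TPM (-1.24 ± 0.11, limma adjusted p 0.000156).

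The genes that rose by 72 h included SOX2, ZIC2 and PODXL; the PODXL call was lost without replicate 2 at 34 h (limma adjusted p 0.115) or either replicate at 72 h (0.0972 and 0.0705), with no filter on low values (0.0583) and without a variance trend (0.0563). SOX2, the DNA-binding partner of POU5F1 and also a neural progenitor factor, went from 224 and 211 TPM at 34 h to 348 and 333 TPM (0.64 ± 0.08, limma adjusted p 0.00117), while POU5F1 was at 32.0%. LIN28A, the RNA-binding partner of L1TD1, went from 908 and 897 TPM before WNT3A to 1078 and 970 by 72 h (0.18 ± 0.08, limma adjusted p 0.122). At 50 h LIN28A was called higher (0.32 ± 0.08, limma adjusted p 0.0467), a call lost in 15 of 18 alternatives, among them each of the 8 libraries left out (range 0.0165 to 0.211). NODAL, the ligand of the pathway that NANOG depends on, had 0.572 and 0.449 TPM before WNT3A, 8.32 and 7.84 by 42 h, and 0.417 and 0.361 by 72 h. It was higher at 42 h (2.59 ± 0.25, limma adjusted p 0.00124), when NANOG differed from 34 h by 0.18 with a 95% confidence interval of -0.46 to 0.82. All these libraries came from SB medium, and a link between NODAL and NANOG was not tested.

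**Figure D5:**
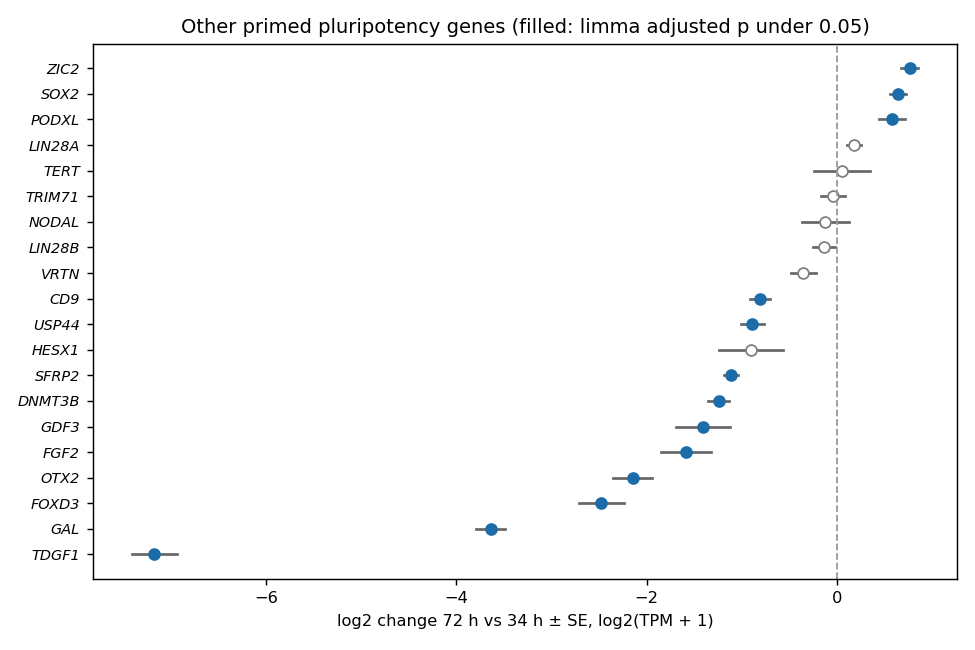
limma log2 change from 34 h to 72 h with its SE (x axis, log2(TPM + 1) scale) for 20 of the 21 tested genes of the primed list (y axis); filled points passed an adjusted p of 0.05. TDGF1 lies at -7.17 and SOX2 at 0.64, with LIN28A near 0.

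Naive pluripotency genes, which mark an earlier embryonic state, were near the lower limit throughout: 5 of 14 were tested, KLF17 was listed at 0 in all 8 libraries, and the 14 summed to between 5.90 and 14.5 TPM. Of the 5 tested, 1 was higher at 42 h and at 50 h, and 1 was higher and 2 lower at 72 h. None of these counts held in all 18 alternatives. Over all tested genes 1.78%, 3.52% and 12.7% were higher at 42, 50 and 72 h, and 11.3% were lower at 72 h. Between 50 h and 72 h 4.41% of all tested genes were lower. KLF5, a Krüppel-like factor, was the higher one of the 5 at 42 h (1.03 and 1.42 to 4.17 and 5.44 TPM, a change of 1.38 ± 0.24, limma adjusted p 0.0211). That call was lost without any 1 of the 34 or 42 h libraries, and with no filter on low values (limma adjusted p 0.0567). From 50 h to 72 h 3 of the 5 were lower, and none of these 3 calls held without either replicate 1 at 50 h or replicate 1 at 72 h. In the families of the members, SALL2 was called lower at 72 h against 34 h as SALL4 was, SALL1 was called higher, and SALL3 was not called. SALL2 went from 211 and 187 TPM before WNT3A to 148 and 153 by 72 h (-0.40 ± 0.09, limma adjusted p 0.0130), a call lost without replicate 1 at 34 h (0.0834) or replicate 1 or 2 at 72 h (0.0821 and 0.0584). SALL1 went from 58.6 and 48.0 TPM at 34 h to 129.5 and 123.6 TPM at 72 h (1.24 ± 0.12, limma adjusted p 0.000218). SALL3 went from 19.3 and 18.3 TPM to 39.6 and 32.9 TPM at 50 h (0.91 ± 0.13, limma adjusted p 0.00488) and fell to 16.0 and 17.6 TPM at 72 h (-1.06 ± 0.13 from 50 h, limma adjusted p 0.00243), so that it was high when PRDM14 was low. POU3F2, a neural POU factor, rose from 0.119 and 0.0948 TPM at 34 h to 2.62 and 2.86 TPM (1.76 ± 0.26, limma adjusted p 0.00214).

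Markers of other cell types moved over the same hours. Neural progenitor markers (SOX2 is on this list too) summed to between 426 and 448 TPM before WNT3A and between 745 and 795 by 72 h, and 5 of the 7 tested were higher at 72 h against 12.7% of all tested genes. SOX1, an early neural factor, rose by 4.16 ± 0.19 (limma adjusted p 6.531e-06). SOX3 and MSI1 were not called (limma adjusted p 0.750 and 0.167), and HES5 and ZBTB16 were below the filter. SOX2 and NES made up most of the sum at 34 h and at 72 h. Primitive streak and mesoderm markers summed to at most 2.13 TPM at 34 h, to 11.8 and 16.0 at 42 h, and to 3.40 and 4.11 by 72 h; 3 of 8 were tested, MSGN1 was at 0 in every library, and TBXT, the streak factor, had 11.4 and 7.92 TPM at 42 h. This sum was high when PRDM14 was low. Germ cell markers, given because PRDM14 and POU5F1 are also germ cell genes, summed to between 24.2 and 33.7 TPM before WNT3A and to between 44.8 and 49.2 by 72 h. Their defining member SOX17 was listed at 0 in all 8 libraries, PRDM1 had at most 0.738 TPM, and DAZL rose (from 2.28 and 1.81 to 33.0 and 28.0 TPM). The higher sum at 72 h rested on DAZL. TFAP2C went from 17.3 and 9.16 TPM to 6.18 and 9.03 TPM and was not called (limma adjusted p 0.117). Of the 3 germ cell markers tested at 72 h, 1 was higher (12.7% of all tested genes) and 1 lower (11.3%), with a median change of -0.68. The lower one was KIT, a receptor tyrosine kinase (13.6 and 12.9 to 9.02 and 6.90 TPM; -0.68 ± 0.16, limma adjusted p 0.0200), a call lost without either replicate at 34 h (0.0903 and 0.0747) or replicate 2 at 72 h (0.122). Endoderm markers summed to at most 15.3 TPM and amnion and trophoblast markers to at most 21.1 TPM. Within the former FOXA2 went from 11.9 and 13.4 TPM before WNT3A to 0.575 and 0.866 by 72 h (-2.99 ± 0.18, limma adjusted p 1.905e-05), while CXCR4, a chemokine receptor and the other endoderm marker tested, went from 1.13 and 1.73 to 6.33 and 7.21 TPM (1.68 ± 0.21, limma adjusted p 0.000922). Within the latter CDX2, a caudal homeobox factor also found in posterior tissue, went from 0.0395 and 0 TPM to 8.92 and 6.47 by 42 h (3.08 ± 0.37, limma adjusted p 0.00380) and stood at 0.370 and 2.16 by 72 h. The part of these cells in the changes of the members was not tested.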

How the data were processed

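The deposited values are TPM per Ensembl gene; per the submitters' processing notes, Salmon 1.9.0 and GRCh38 were used by the authors, and annotation and filters are not given in the sources used here. Each column summed to 1000000, so depth is unknown, and 13860 to 14004 genes reached 1 TPM in a library. The 37951 rows were summed to 35940 symbols. All 8 columns were used. A mean per time point was fitted to log2(TPM + 1) over the 8 libraries (R 4.3.3, limma 3.58.1, variance trend on); p-values are two-sided. Recovery of known changes was tested on simulated data. An exact permutation test was not used, since 2 libraries against 2 cannot reach the threshold. Positions are from GENCODE release 29 (GRCh38), promoters from RefSeq.

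Members, lists and tests were chosen with earlier results of these data known. Named genes are the members, genes of the lists, and the 2 most similar profiles of each member, of which some are named. ESRG of the primed list was not matched, and 1 tested gene of that list is counted but not reported here. The batch label pairs libraries by replicate number. Differences between replicates 1 and 2 correlated across genes at 0.0949 to 0.195 among 34, 42 and 50 h and at -0.104 to -0.0445 between 72 h and the others. Spearman correlations were 0.980 to 0.984 within a time and 0.933 to 0.982 between times. Alternatives were pseudocount 0.1, no filter, a mean of at least 5 TPM, trimmed mean rescaling, quantile normalization, no mitochondrial genes, no variance trend, compared times alone, the replicate block, Ensembl rows apart, and each library left out.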

Additional observations from a re-analysis of the deposited data

How the results depend on the processing

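Of 882 refits of a member's change, 845 kept the direction and the side of the threshold, 21 lost a call, 9 gained one and 7 changed sign, all 7 in changes of NANOG or ZSCAN10 that did not pass. With 1 library left out, NANOG against 34 h ran from -0.029 (without replicate 2 at 34 h) to 0.39 at 42 h and from -0.060 (likewise) to 0.36 at 50 h, where it was -0.035 without replicate 2 at 50 h. For 50 h against 42 h NANOG ran from -0.21 to 0.15 (without replicate 1 at 50 h) and was 0.015 without replicate 1 at 42 h. ZSCAN10 at 42 h ran from -0.20 to 0.13 (without replicate 1 at 34 h) and was 0.065 without replicate 2 at 42 h. Likewise 1 to 2 members were called lower at 42 h (2 without either replicate at 50 h) and 1 to 4 at 50 h. With the replicate block, which keeps the pairing by batch, 1, 4 and 6 members were lower at 42, 50 and 72 h; from 50 h to 72 h 5 were, and ZFP42 was the call it added, as it was with 4 other settings. No scaling moved the median of all tested genes by over 0.1. The F-test was not run with compared times alone. Without a record of reads, the levels of NANOG, UTF1 and DPPA2, near 1 TPM, have no counting error attached, and their changes cannot be resolved.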
